A study of Manihot esculenta with 9 samples.

Results

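Galactinol synthases are the 9 genes, of 33033 in the deposited expression table, whose description names a galactinol synthase, and their transcripts were measured in cassava leaves with and without abscisic acid (ABA) or polyethylene glycol (PEG6000). Wild-type TM60444 seedlings were grown from stem segments in Murashige and Skoog (MS) medium for 60 days. In the ABA group, this stress hormone was brought to 50 μmol/L in the medium, in the PEG group this osmotic agent, which lowers the water potential of the medium, was brought to 7%, and mature leaves were taken 48 h later. The MS control seedlings were kept in MS medium with neither agent, and no sampling time beyond the 60 days was given for them in the sources used here. RNA-seq gave 3 libraries per group. The study states biological replicates, but separate plants per library are not stated, so p-values measure the spread between these libraries.

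Galactinol synthase joins galactose from UDP-galactose to *myo*-inositol and so makes galactinol. Galactinol is the galactose donor from which raffinose synthase makes raffinose and stachyose synthase makes stachyose, and the enzyme stands at the entry to this pathway. These sugars act as compatible solutes and protect membranes and proteins in drying seeds and in stressed leaves, and they also serve as transport sugars in some plants. In *Arabidopsis*, *AtGolS1* and *AtGolS2* are raised by drought and salt, and *AtGolS1* is also a target of heat shock transcription factors.

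The 9 genes fall under 4 *Arabidopsis* genes, which the table gives as their nearest matches. Manes.03G208800, Manes.15G003200, Manes.05G012000 and Manes.01G231500 match galactinol synthase 1 (AT2G47180). Manes.08G109300, Manes.09G179100 and Manes.08G109400 match galactinol synthase 2 (AT1G56600). Manes.13G029000 matches galactinol synthase 4 (AT1G60470), and Manes.12G027400 matches galactinol synthase 7 (AT1G60450). Only 1 pair lies side by side: Manes.08G109300 and Manes.08G109400 are neighbours on chromosome 8, 3493 bases apart. A value may hold reads of another copy, since the treatment of shared reads was not given in the sources used here.

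Total counts were 13923803 to 16378389 in the MS control, 14850183 to 15690202 under ABA and 15847859 to 17108746 under PEG, and the 9 genes together took 17365 to 21931 reads per library. All 24 light-harvesting or chlorophyll-binding antenna genes, which mark photosynthetic leaf tissue, had reads in each of the 9 libraries. Their summed level was 932 FPKM (fragments per kilobase of gene model, scaled to the total of each library) in the MS control, 520 FPKM under ABA and 2510 FPKM under PEG, as means. Of 33 genes of late embryogenesis abundant (LEA) proteins or dehydrins, known as desiccation protectants, 20 passed the filter on low counts and were tested. Of these 20, 12 rose and 5 fell under ABA, where 32.9% of all genes tested rose and 33.4% fell. Under PEG 2 of them rose and 16 fell, where 35.6% of all genes rose and 35.1% fell. These counts depend in part on the filter, which Manes.08G044900, for example, passed only through its MS control and ABA libraries. The part of these differences in the values below was not tested. Directions under PEG follow the library labels, and whether the labels of PEG and MS control libraries were swapped cannot be told apart here. The comparisons of ABA with PEG and of ABA with the MS control rest on the same labels, and a swap would exchange their values. In whole leaves, fewer cells of a type and less RNA per cell cannot be told apart.

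Galactinol synthase transcripts were abundant in these leaves, but a few copies held nearly all of them. The summed level was 651, 659 and 630 FPKM in the MS control libraries, 967, 962 and 975 FPKM under ABA, and 568, 563 and 554 FPKM under PEG. The group sums did not overlap, with ABA at 1.5 times and PEG at 0.869 times the MS control. These sums depend on the gene model lengths, which reach 3383 bases for Manes.13G029000. In reads, not scaled to total counts, the family took 17365 to 19514 per MS control library and 20751 to 21931 per ABA library. Under PEG it took 19171 to 21072 reads per library. Total counts were 15847859 to 17108746 per PEG library and 13923803 to 16378389 per MS control library. These raw reads therefore do not show whether the family took a smaller part of all reads under PEG. Manes.03G208800 held 49.3% ± 0.48 (SD, n = 3) of the FPKM sum in the MS control and Manes.13G029000 held 31.1% ± 0.509 (SD, n = 3). In reads over the 3 libraries the order was the other way, with 17789 for Manes.03G208800 and 30732 for Manes.13G029000. Under PEG these genes had 15367 and 42051 reads. All shares given here are of FPKM and depend on the model lengths, which their SDs do not cover. Under ABA the share of Manes.13G029000 was 8.95% ± 0.223 (SD, n = 3), and that of Manes.08G109300 was 23.4% ± 0.333 (SD, n = 3) where it was 3.31% ± 0.141 (SD, n = 3) in the MS control. Under PEG Manes.03G208800 and Manes.13G029000 each held 44.4%, and Manes.08G109300 held 0.67%. By nearest match, the 3 copies of galactinol synthase 2 had shares of 5.1%, 28.3% and 1.73% in the MS control, ABA and PEG groups.

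**Figure D1:**
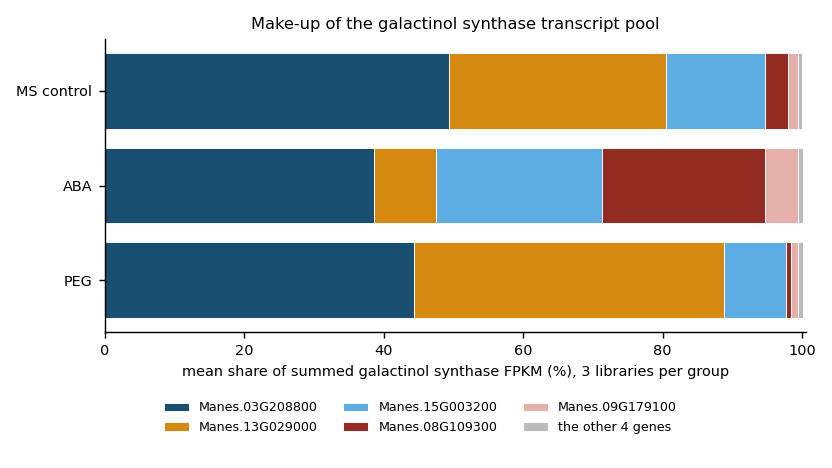
Mean share (%) of the summed galactinol synthase FPKM held by each of the 5 highest genes and by the other 4 together, in 3 libraries per group. Shares depend on the gene model lengths, and in reads Manes.13G029000 is above Manes.03G208800 in the MS control and under PEG. Manes.08G109300 grew from 3.31% in the MS control to 23.4% under ABA, and Manes.13G029000 from 31.1% in the MS control to 44.4% under PEG.

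Counts were tested with edgeR's quasi-likelihood test in 1 fit of all 9 libraries, with Benjamini-Hochberg adjustment over the 23984 genes that passed its filter on low counts. The words rise and fall are kept for genes with an adjusted p under 0.05, and SE is the standard error of a log2 fold change. Log2 fold changes come from this fit after TMM scaling, while FPKM values are scaled by total counts. Of the 9 galactinol synthases, 8 passed the filter, which asks for about 10 reads in at least 3 libraries, and Manes.12G027400 did not. The 5 main copies, those with a mean of 20.4 to 314 FPKM over the 9 libraries, were past this level in every library. Under ABA 4 of these 5 rose and Manes.13G029000 fell, where 32.9% of all genes tested rose and 33.4% fell. Under PEG 4 fell and Manes.13G029000 rose, where 35.1% of all genes fell and 35.6% rose. From ABA to PEG, 4 were lower under PEG and Manes.13G029000 was higher, where 35.6% of all genes were lower and 39.1% higher. Their median log2 fold change was 1.38 under ABA and -0.86 under PEG, against 0.0 over all genes in both. The other 3 genes tested passed the filter only through the groups where they were high, Manes.05G012000 through ABA, Manes.01G231500 through ABA and PEG, and Manes.08G109400 through the MS control and ABA. Their calls therefore depend in part on the filter and add nothing to the counts of the main copies. With them, 7 of 8 passed as higher and 1 as lower under ABA, and 2 as higher and 5 as lower under PEG. Both comparisons with the MS control share its 3 libraries.

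**Figure D2:**
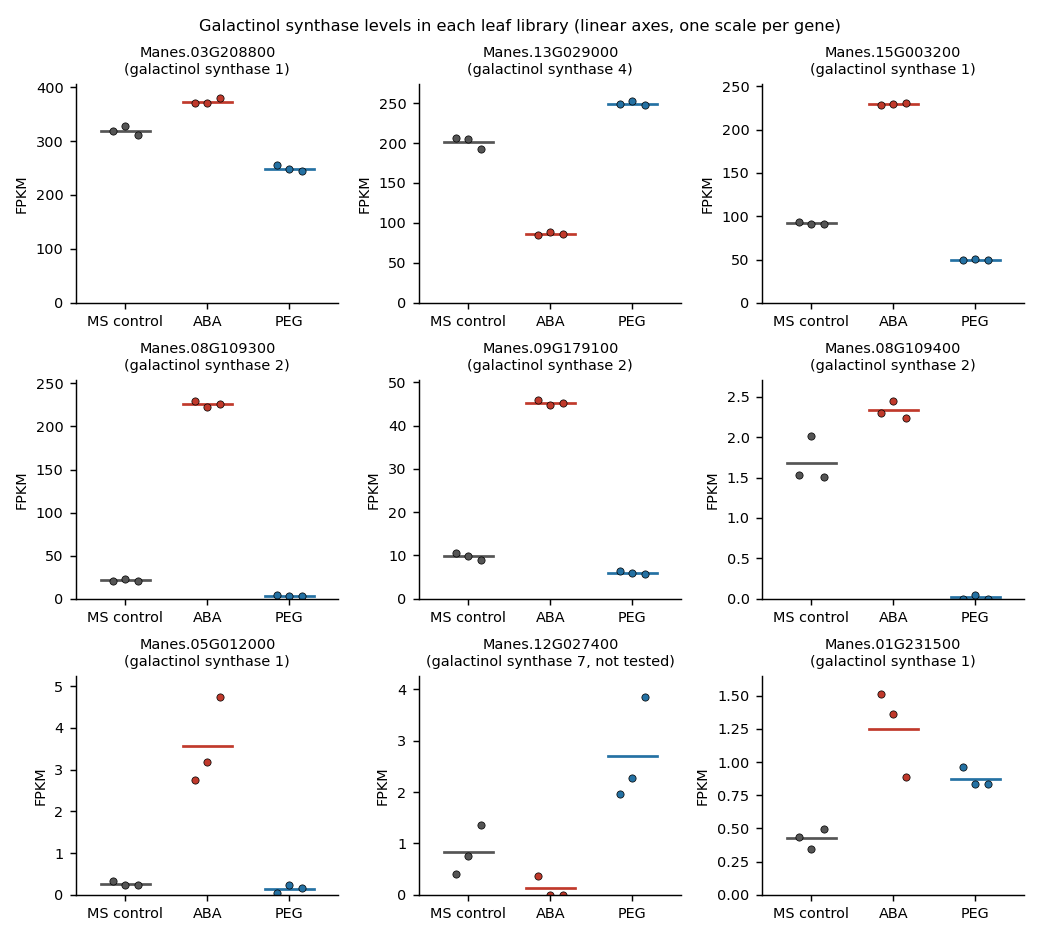
FPKM of each galactinol synthase in each library (points) with the group mean (line), on linear axes with a scale of its own for each gene. Manes.13G029000 is lowest under ABA, at 85.4 to 88.6 FPKM, while Manes.08G109300 reaches 223 to 230 FPKM there against 20.4 to 22.9 FPKM in the MS control.

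Manes.08G109300, the galactinol synthase 2 copy on chromosome 8 (27446317 to 27447941 in the cassava genome v6.1), showed the widest span among the 5 main copies. Its level was 21, 22.9 and 20.4 FPKM in the MS control, 230, 223 and 226 FPKM under ABA, and 4.77, 3.58 and 2.97 FPKM under PEG. The ABA libraries lay far above the MS control libraries and the PEG libraries below them, with no overlap. Under ABA it rose 10.6-fold by mean FPKM, with a log2 fold change of 3.46 (SE 0.10, edgeR adjusted p = 6.02e-11), the 186th largest rise of the 23984 genes. Under PEG it fell, with a log2 fold change of -2.63 (SE 0.11, edgeR adjusted p = 1.8e-09). PEG minus ABA was -6.1 on the log2 scale (SE 0.12, edgeR adjusted p = 6.98e-13). Exact permutation tests of FPKM gave p = 0.1 in each of these comparisons, the smallest that 3 libraries against 3 allow, and the same held for the other 4 main copies.

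Manes.08G109400, its neighbour on chromosome 8 (27451435 to 27453176), was low throughout. It had 25, 35 and 29 reads in the MS control libraries (1.53, 2.01 and 1.51 FPKM), 40, 45 and 39 reads under ABA (2.30, 2.45 and 2.23 FPKM), and 0, 1 and 0 reads under PEG. The PEG libraries were thus almost empty of this transcript, and the ABA libraries lay just above the MS control libraries. It passed the filter through its MS control and ABA libraries. The fall under PEG had an edgeR adjusted p of 3.7e-07 (3.04e-07 with no filter), and reads relative to total counts were 98.3 times lower than in the MS control (exact 95% interval 17.2 to 3920, counting error only). The rise under ABA was small, at 0.53 on the log2 scale (SE 0.21, edgeR adjusted p = 0.04). That rise did not pass in 8 of 15 alternative settings, among them each setting that left out MS control replicate 1 or 3 or any ABA library, where it was 0.45 to 0.56. On the other side of Manes.08G109300, 1520 bases away, Manes.08G109200, a nodulin MtN21/EamA-like transporter gene, had a mean of 20.9 FPKM in the MS control, 32.9 FPKM under ABA and 5.47 FPKM under PEG.

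Manes.09G179100, the galactinol synthase 2 copy on chromosome 9 (28784797 to 28786402), moved in the same directions as Manes.08G109300 but over a narrower span. Its level was 10.6, 9.89 and 9.03 FPKM in the MS control, 46.0, 44.7 and 45.2 FPKM under ABA, and 6.37, 5.85 and 5.65 FPKM under PEG. The 3 groups were separate, with ABA highest and PEG lowest. It rose under ABA with a log2 fold change of 2.27 (SE 0.06, edgeR adjusted p = 5.44e-11) and fell under PEG with one of -0.86 (SE 0.07, edgeR adjusted p = 6.79e-07). The ratio of Manes.08G109300 to Manes.09G179100 within a library, which no scaling between libraries can change, was 1.97 to 2.31 in the MS control, 4.99 to 5.01 under ABA and 0.526 to 0.749 under PEG. The order of these copies thus differed, with Manes.08G109300 the higher in the MS control and under ABA and Manes.09G179100 the higher under PEG (two-sided exact permutation test of the log2 ratio, p = 0.1 for ABA and for PEG against the MS control, the smallest possible).

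Manes.03G208800, a galactinol synthase 1 copy on chromosome 3 (28896616 to 28898137), had the highest FPKM of the family in the MS control and under ABA, and changed least of the 5 main copies under ABA and from ABA to PEG. Its level was 318, 327 and 312 FPKM in the MS control, 371, 370 and 379 FPKM under ABA, and 255, 248 and 245 FPKM under PEG. The groups did not overlap, although the means differed by less than 2-fold. It rose under ABA by 0.29 on the log2 scale (SE 0.03, edgeR adjusted p = 1.7e-06) and fell under PEG, with a log2 fold change of -0.49 (SE 0.03, edgeR adjusted p = 1.36e-08). Its mean over the 9 libraries was higher than that of 99.6% of the genes in the table.

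Manes.15G003200, also a galactinol synthase 1 copy, lies on chromosome 15 (272870 to 274578). Its level was 92.9, 91.1 and 91.2 FPKM in the MS control, 228, 229 and 231 FPKM under ABA, and 49.7, 50.6 and 48.9 FPKM under PEG. Replicates were close together and the groups far apart. It rose under ABA by 1.38 on the log2 scale (SE 0.03, edgeR adjusted p = 3.79e-12) and fell under PEG, with a log2 fold change of -1.02 (SE 0.03, edgeR adjusted p = 3.67e-11). The ratio of Manes.03G208800 to this copy was 3.42 to 3.59 in the MS control, 1.62 to 1.64 under ABA and 4.89 to 5.14 under PEG. The ratio of these galactinol synthase 1 copies thus did not overlap between the groups in these libraries. The two-sided exact permutation test of the log2 ratio gave p = 0.1 for ABA and for PEG against the MS control, the smallest possible. Under ABA Manes.15G003200 and Manes.08G109300 did not differ beyond their spread, at 229 ± 1.39 FPKM (SD, n = 3) and 226 ± 3.49 FPKM (SD, n = 3).

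Manes.05G012000, a galactinol synthase 1 copy on chromosome 5 (822143 to 824202), was near the detection limit without ABA. It had 7, 5 and 6 reads in the MS control libraries, 61, 75 and 106 reads under ABA, and 1, 6 and 4 reads under PEG, and passed the filter on low counts through its ABA libraries. In FPKM the ABA libraries reached 2.74, 3.19 and 4.75, well above 0.336, 0.224 and 0.245 in the MS control. The log2 fold change under ABA was 3.78 (SE 0.34, edgeR adjusted p = 1.59e-06), at a level that stayed low beside the main copies. With no filter on low counts it was 3.77 (adjusted p = 1.23e-06). For PEG the log2 fold change was -0.96 (SE 0.63, edgeR adjusted p = 0.19), which did not pass, and the FPKM ranges overlapped.

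Manes.01G231500, the galactinol synthase 1 copy on chromosome 1 (31476735 to 31486544), was annotated over 9810 bases, the longest span of the family, with a model length of 984 bases. It had 6, 5 and 8 reads in the MS control libraries, 22, 21 and 13 reads under ABA, and 16, 14 and 13 reads under PEG. Both treated groups lay above the MS control and overlapped each other, and the gene passed the filter through these treated libraries only. It rose under ABA by 1.60 on the log2 scale (SE 0.31, edgeR adjusted p = 0.000784) and under PEG by 0.89 (SE 0.33, edgeR adjusted p = 0.0306). With no filter these values were 1.59 (adjusted p = 0.00111) and 0.89 (adjusted p = 0.0416). The rise under PEG did not pass with the Wald test of DESeq2 or without MS control replicate 1 or 2 or any 1 PEG library, with adjusted p-values of 0.0156 to 0.129 over all settings. The PEG minus ABA value of -0.71 (edgeR adjusted p = 0.0298) did not pass in 6 of 15 settings, among them those without ABA replicate 1 or 2 or PEG replicate 2 or 3.

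Manes.13G029000, the galactinol synthase 4 match on chromosome 13 (2755754 to 2759184), moved against the other 4 main copies. Its level was 206, 205 and 193 FPKM in the MS control, 85.4, 88.6 and 86.0 FPKM under ABA, and 249, 252 and 247 FPKM under PEG. The ABA libraries were the lowest and the PEG libraries the highest. It fell under ABA, with a log2 fold change of -1.15 (SE 0.03, edgeR adjusted p = 1.57e-11), and rose a little under PEG, by 0.17 (SE 0.03, edgeR adjusted p = 0.000143). With no scaling beyond library size the rise under PEG was 0.31. PEG minus ABA was 1.33 (SE 0.03, edgeR adjusted p = 1.45e-12). Within each library, the ratio of Manes.08G109300 to Manes.13G029000 was 0.102 to 0.112 in the MS control, 2.51 to 2.69 under ABA and 0.012 to 0.0191 under PEG.

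The place of Manes.13G029000 in the family depends on the gene model. The length behind its FPKM is 3383 bases, against 1171 to 1498 bases for 6 of the other copies, 984 bases for Manes.01G231500 and 180 bases for Manes.12G027400. By reads it was the largest of the family in the MS control, with 30732 reads over the 3 libraries against 17789 for Manes.03G208800, and per length it was second. Under PEG both genes had 249 FPKM and their ranges overlapped. The annotated span of Manes.13G029000 also overlaps that of Manes.13G029100, a gene with no description and a mean of 0.668 to 2.04 FPKM per group. The strand setting of the counts was not given in the sources used here.

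Manes.12G027400, the galactinol synthase 7 match on chromosome 12 (2125574 to 2125828), is a short model of 255 bases in the genome and 180 bases in the FPKM values. It had 1, 2 and 4 reads in the MS control libraries, 1, 0 and 0 reads under ABA, and 6, 7 and 11 reads under PEG. All PEG libraries were above the others in reads, but the counts are small. Reads relative to total counts were 3.11 times the MS control under PEG (exact 95% interval 1.3 to 8.53, counting error only) and 0.142 times under ABA (interval 0.00315 to 1.11).

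**Figure D3:**
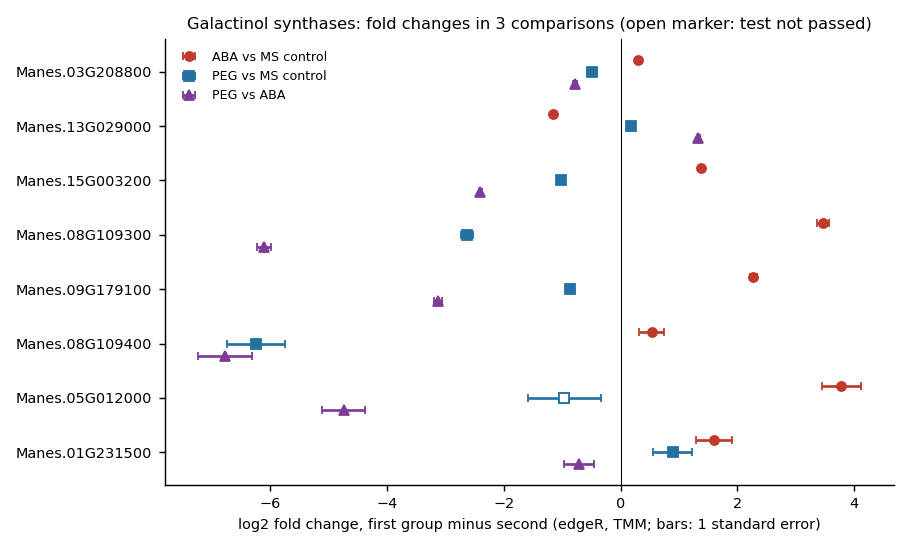
Log2 fold change (horizontal axis) with 1 standard error for the 8 galactinol synthases tested, from edgeR after TMM scaling. Circles are ABA minus MS control, squares PEG minus MS control and triangles PEG minus ABA, and an open marker did not pass. ABA values lie to the right of 0 except for Manes.13G029000 at -1.15, and Manes.08G109400 has the lowest PEG value, which rests on 1 read in the PEG libraries.

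The order of the levels was not the same in the 3 groups. In the MS control it ran from Manes.03G208800 through Manes.13G029000, Manes.15G003200, Manes.08G109300, Manes.09G179100 and Manes.08G109400 to the rest, and each of these 6 was separate from the next by its range. The last 3 were Manes.12G027400, Manes.01G231500 and Manes.05G012000, of which the first pair overlapped. Under ABA Manes.13G029000 was in place 4, below Manes.15G003200 and Manes.08G109300, whose ranges overlapped. Under PEG Manes.09G179100 was in place 4, above Manes.08G109300, whose range overlapped that of Manes.12G027400.

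The genes whose pattern was most like that of the 2 highest members were found among 14117 other described genes with a mean of at least 5 FPKM, by the root mean square difference of centred log2(FPKM + 1) values over the 9 libraries. For Manes.03G208800 they were Manes.01G226200 (a MYB domain gene, difference 0.0181), Manes.01G123000 (UDP-glucose pyrophosphorylase 2, 0.0212) and Manes.17G082100 (jasmonate-zim-domain protein 3, 0.03). Manes.01G123000 had means of 6.37, 7.86 and 4.90 FPKM in the MS control, ABA and PEG groups. For Manes.13G029000 they were Manes.18G046100 (an alpha/beta-hydrolase, difference 0.0399), Manes.06G023000 (a putative receptor serine/threonine kinase, 0.0479) and Manes.08G092200 (an SGNH hydrolase-type esterase, 0.0481). Manes.18G046100 had means of 153, 62.1 and 184 FPKM.

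Enzymes that supply the substrates of galactinol synthase were counted in the same fit, in which 32.9% of all genes rose and 33.4% fell under ABA, and 35.6% rose and 35.1% fell under PEG. All 4 genes for UDP-glucose 4-epimerase, which makes UDP-galactose, rose under ABA, and 3 fell under PEG. The highest of them, Manes.02G009300, had 62.1 ± 2.61, 221 ± 2.39 and 42.1 ± 1.18 FPKM (SD, n = 3 each) in the MS control, ABA and PEG groups, with log2 fold changes of 1.90 and -0.69. Both genes for *myo*-inositol-1-phosphate synthase, which starts *myo*-inositol synthesis, rose under ABA, Manes.13G091100 from 13.7 to 38.9 mean FPKM. Under PEG Manes.12G137800 rose by 1.42 on the log2 scale (edgeR adjusted p = 2.88e-05) and Manes.13G091100 did not pass (0.01, adjusted p = 0.869). Of 11 inositol monophosphatase family genes, a family that also holds phosphatases of other substrates, 5 fell under ABA and the others did not pass, while 6 rose and 1 fell under PEG. Its highest gene, Manes.18G091300, had 23.6, 6.41 and 103 mean FPKM in these groups. Both tested genes for *myo*-inositol oxygenase, which uses *myo*-inositol in another path, rose under ABA and fell under PEG, Manes.04G136300 with 31.4, 50.2 and 5.99 mean FPKM.

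Of the enzymes that use galactinol or its products, 5 of 9 tested raffinose synthase or seed imbibition genes rose and 2 fell under ABA, and 4 rose and 4 fell under PEG, beside 32.9% and 33.4% of all genes under ABA and 35.6% and 35.1% under PEG. The highest was Manes.08G049600, described as seed imbibition 2 and not as a raffinose synthase, and its activity was not tested. It had 393 ± 9.07, 662 ± 3.51 and 52.1 ± 0.34 FPKM (SD, n = 3 each), and log2 fold changes of 0.82 under ABA and -3.05 under PEG. The 1 stachyose synthase gene, Manes.01G229800, rose under ABA by 0.41 and fell under PEG, with a log2 fold change of -0.71. Of 3 alpha-galactosidase genes tested, which release galactose from these sugars, 2 rose under ABA and 1 did not pass, and 1 rose and 2 fell under PEG. Manes.04G160300 was the highest, at 195, 205 and 184 mean FPKM, and Manes.16G023900 rose under both, from 0.799 to 1.87 and 2.55 mean FPKM.

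Among 22 tested heat shock transcription factor genes, 9 rose and 7 fell under ABA, and 9 rose and 3 fell under PEG. The counts under ABA lie near the shares of all genes, 32.9% that rose and 33.4% that fell, and under PEG those shares were 35.6% and 35.1%. Manes.16G100700, a match to heat shock transcription factor A2, passed the filter only through the treated libraries and had 0.198 ± 0.133, 26.3 ± 0.778 and 0.914 ± 0.0658 FPKM (SD, n = 3 each) in the MS control, ABA and PEG groups. Manes.16G116200 (C1) had the highest mean of the list, at 52.2, 157 and 81.1 FPKM, and Manes.08G051600 (B3) fell under PEG from 95.8 to 13.9 mean FPKM. Other members of glycosyltransferase family 8, to which galactinol synthases belong, were searched for by description, and the list may not hold all of them. Of 12 such genes tested, 2 rose and 8 fell under ABA, and 7 fell under PEG while 5 did not pass. Manes.14G097800 (galacturonosyltransferase-like 3) was the highest, at 38.6, 7.01 and 13.3 mean FPKM. Manes.18G087900 (plant glycogenin-like starch initiation protein 2) fell under PEG from 20.5 to 9.7 mean FPKM, and Manes.01G224000 (galacturonosyltransferase-like 7) from 13.8 to 5.43 mean FPKM.

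**Figure D4:**
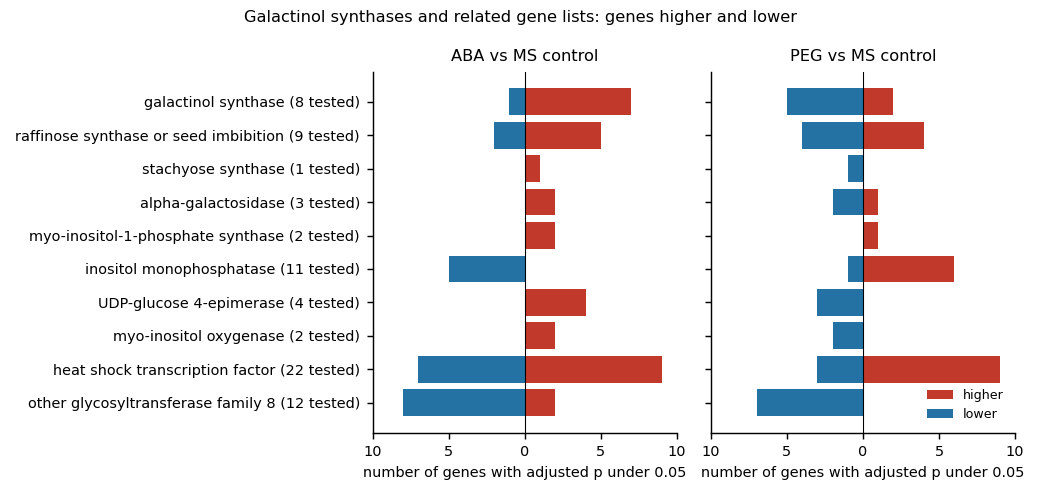
Number of genes that rose (right) and fell (left) in edgeR's test in each gene list, under ABA and under PEG against the MS control, with the number tested beside each name. Of the galactinol synthases, 3 of which passed the filter only through the groups where they were high, 7 rose and 1 fell under ABA (32.9% and 33.4% of all genes tested), and 2 rose and 5 fell under PEG (35.6% and 35.1%).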

How the data were processed

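Per the labels, 9 leaf libraries were sequenced. For each, the authors deposited raw whole-number counts of reads and FPKM values in a single table of genes. The deposited FPKM values equal counts divided by gene model length and total count, which gave the model lengths of the 9 genes. HISAT2 2.0.4 and StringTie 1.3.0 appear, with no role stated, in the submitters' processing notes. Counting tool, strand setting and filters were not given in the sources used here. IDs and coordinates follow the cassava genome v6.1, and descriptions are nearest *Arabidopsis* matches. None of the IDs matched the RefSeq table, and no sequence is shown.

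Groups and replicate numbers came from the labels, and columns were matched to libraries by the names in the labels. The main test was edgeR 4.0.16 in R 4.3.3 (filterByExpr, TMM, quasi-likelihood test on group means in 1 fit), with a threshold of 0.05 on p-values adjusted over 23984 genes. Standard errors were derived from the F statistic. On simulated data with 200 genes changed, ABA against the MS control gave back 82.1% of 1.5-fold and 100% of 2-fold changes, and PEG against the MS control 73.1% and 98.5%. The changed genes were drawn only from those above a set mean read count. All genes were given the same spread setting, and no other gene was changed. The rates therefore do not give the recovery for galactinol synthases with few reads. Exact tests used SciPy 1.17.1.

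The members and gene lists were chosen with earlier results of these data known. Pathway lists were searches of the descriptions, and named from each are the gene with the highest mean FPKM and those with the lowest p in each comparison. The LEA and dehydrin list was added after values were seen. Alternatives were other scalings, no filter, the Wald test of DESeq2 1.42.0, a replicate block, fits restricted to the groups compared, and leaving out each library in turn. Replicate libraries differed by more than sampling noise (median chi-square 0.659 to 0.842, against 0.455 from sampling).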

Additional observations from a re-analysis of the deposited data

How the results depend on the processing

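Of the 8 galactinol synthases tested, 6 kept the direction and the side of the threshold of all 3 comparisons in every alternative run that tested them. The exceptions were the rise of Manes.08G109400 under ABA and the values of Manes.01G231500 under PEG, both from few reads, and no value changed sign. The fit restricted to PEG and the MS control did not test Manes.05G012000. The number of galactinol synthases that rose under PEG was 1 in place of 2 with the Wald test of DESeq2, and 1 to 2 when each library was left out in turn. With no filter on low counts, 2 genes in place of 1 were higher under PEG than under ABA, since Manes.12G027400 was then tested. With no scaling beyond library size the median of all genes moved from 0.005 to 0.138 for PEG against the MS control and from 0.046 to 0.243 for PEG against ABA. Deviations of same-numbered libraries were weakly correlated, at -0.0385 to 0.0682, against -0.0493 to 0.0268 for pairs with different numbers. Whether same-numbered samples share more than a number cannot be decided from such weak values. With the replicate block, the adjusted p for Manes.08G109400 under ABA was 0.0548 at the same log2 value of 0.53, and no other call changed. Genes with few reads limit these results, since Manes.12G027400, with 32 reads in all, could be tested only without the filter, and the fold of Manes.08G109400 under PEG rests on 1 read.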
